A study of Caenorhabditis elegans with 14 samples.

Results

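The let-7 family miRNAs of Caenorhabditis elegans, let-7, miR-48, miR-84 and miR-241, were followed in small RNA libraries from whole gravid adult hermaphrodites. The members were all miRNA-class features with these names, both arms of each hairpin, which gave 8 of 450 miRNAs and of 23869 small RNA features listed. Wild-type animals of strain N2 were compared with strain TAM93, which carries the pash-1(ram33) allele, a missense change in the WW domain of PASH-1. PASH-1 is the partner of the ribonuclease Drosha in the Microprocessor, the complex that cuts miRNA hairpins out of their primary transcripts, and the comparison asked which mature miRNAs depend on an intact WW domain. Both strains were grown from synchronized first-stage larvae, either for 72 h at 20 °C (3 libraries per strain) or for 54 h at 25 °C (4 per strain), so temperature and growth time cannot be told apart. The allele came from a chemical mutagenesis screen and was outcrossed to wild-type, and a single mutant strain was sequenced. The authors call the replicates biological. The labels do not say whether they were separate cultures, so the p-values describe the spread between these libraries. Values are rpm, reads of a feature scaled to the size of its library, and the estimated depth was 16400000 to 23400000 reads per library. In whole animals, fewer cells of a type and less RNA per cell cannot be told apart.

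The let-7 family belongs to the heterochronic pathway, in which miRNAs switch larval cells from the program of an earlier stage to that of a later stage. Members share the seed, the stretch near the 5′ end of a miRNA that pairs with target mRNAs. In C. elegans, miR-48, miR-84 and miR-241 act together on hbl-1 in the larval stages before let-7 does, and let-7 represses lin-41 at the transition to the adult. The active miRNA comes from the 5p arm of each of these hairpins, and the 3p arm is mostly discarded when the duplex is loaded into an Argonaute protein. All of these hairpins lie on the minus strand between annotated genes (WBcel235 annotation). The mir-48 hairpin (chromosome V, 14364412 to 14364509) and the mir-241 hairpin (chromosome V, 14366188 to 14366283) are neighbors, separated by 1678 bp. The mir-84 hairpin (chromosome X, 16022404 to 16022478) and the let-7 hairpin (chromosome X, 14744173 to 14744271) are 1278132 bp apart. The annotation gives 3 primary transcripts for let-7, between 14743590 and 14745321, and none for the other hairpins.

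In wild-type adults miR-48-5p was by far the most abundant member. At 20 °C it held 77.1% ± 1.62 (SD, n = 3) of the summed rpm of the 4 5p arms, against 10.3% ± 0.447 held by miR-84-5p, 9.10% ± 1.41 by let-7-5p and 3.44% ± 0.181 by miR-241-5p. Among the 450 miRNAs miR-48-5p ranked 7th at 20 °C, miR-84-5p 27th, let-7-5p 31st and miR-241-5p 43rd. The order of the 5p arms was the same in all 4 groups of libraries. The ranges of miR-84-5p and let-7-5p overlapped in wild-type libraries at both temperatures but in neither group of mutant libraries, and all other neighbors in this order were separated in every group. The 3p arms were scarce, with group means between 19.8 and 68.3 rpm for miR-48-3p, miR-84-3p and miR-241-3p. Reads of let-7-3p numbered only about 6 to 20 per library, under the mean of 1 rpm required for testing, so 7 of the 8 members were tested.

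miR-241-5p fell in pash-1(ram33) mutants at both temperatures, and it was the only 5p arm of the family that fell under every scaling tried. At 20 °C its levels were 1420, 1469 and 1357 rpm in wild-type replicates 1 to 3, against 666, 568 and 605 rpm in the mutant replicates. Every mutant library was below every wild-type library, and the highest mutant value was less than the lowest wild-type value by more than the whole spread within either strain. The log2 fold change, computed after rescaling rpm by median-of-ratios size factors and adding 0.1, was -1.57 (standard error 0.0998, adjusted p = 8.92e-15 by limma with Benjamini-Hochberg adjustment over all 7034 features tested). At 25 °C miR-241-5p stood at 1796, 1707, 1987 and 1894 rpm in wild-type replicates 1 to 4, against 925, 963, 916 and 1147 rpm in the mutant replicates. The strains again did not overlap. The log2 fold change at 25 °C was -1.50 (standard error 0.0835, limma adjusted p = 4.65e-15 over 7070 features). Features with no overlap and lower mutant rpm made up 2.86% of those tested at 20 °C and 10.1% at 25 °C. The size of the change moved with the scaling, from -1.21 to -1.59 at 20 °C and from -0.62 to -1.86 at 25 °C. The p-values depended on the trend and robust options of limma. Without them the limma adjusted p was 2.57e-03 at 20 °C and 3.68e-05 at 25 °C, and both still passed.

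The other arm of the same hairpin, miR-241-3p, fell with it. It was at 54.6, 40.7 and 53.0 rpm in wild-type libraries at 20 °C and at 19.5, 20.4 and 19.6 rpm in mutants, a log2 fold change of -1.66 (standard error 0.130, limma adjusted p = 2.60e-12). At 25 °C the wild-type libraries held 52.2, 56.4, 53.8 and 54.9 rpm and the mutant libraries 35.4, 30.3, 33.6 and 34.8 rpm, a log2 fold change of -1.29 (limma adjusted p = 1.30e-13). Both arms of mir-241 were thus separated between strains at both temperatures. The ratio of the arms within a library was 28.8 in wild-type against 30.7 in mutants at 20 °C (difference in log2 0.09, exact permutation p = 0.6) and 33.9 against 29.3 at 25 °C (difference -0.21, exact permutation p = 0.14), with overlapping libraries. Reads elsewhere on the mir-241 hairpin were few at 25 °C, where wild-type libraries had 1.22 ± 0.0532 rpm and mutant libraries 0.480 ± 0.150 rpm (SD, n = 4), and were below the testing filter.

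miR-48-5p and miR-84-5p, which come from different chromosomes, kept nearly the same ratio to each other in every library. At 20 °C the wild-type libraries held 33443, 31151 and 30617 rpm of miR-48-5p and the mutant libraries 42753, 39504 and 42073 rpm. At 25 °C the respective values were 34324, 30939, 34855 and 34503 rpm against 63205, 63452, 64156 and 64274 rpm. The deposited rpm of miR-48-5p was therefore higher in every mutant library than in any wild-type library of the same temperature, by 30.6% on average at 20 °C and by 89.5% at 25 °C. For miR-84-5p the wild-type libraries held 4183, 4275 and 4294 rpm and the mutant libraries 5628, 5476 and 5487 rpm at 20 °C. At 25 °C the values were 4147, 4072, 4273 and 4422 rpm against 7911, 7646, 7996 and 8388 rpm. These libraries did not overlap either, and the increases averaged 30.1% and 88.8%. Such separation was common in the deposited rpm, where 36.6% of features tested were higher without overlap at 20 °C and 47.1% at 25 °C. The ratio of miR-48-5p to miR-84-5p ranged from 7.13 to 8.30 over all 14 libraries. It differed between strains by 0.01 log2 units at each temperature, with overlapping libraries (exact permutation p = 1.0 at 20 °C and 0.89 at 25 °C).

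After rescaling, miR-48-5p and miR-84-5p passed the test only at 25 °C. Their log2 fold changes at 20 °C were 0.02 (standard error 0.0881, limma adjusted p = 0.929) and 0.01 (standard error 0.0877, limma adjusted p = 0.949). At 25 °C both were higher in mutants by 0.33 (standard errors 0.0677 and 0.0694, limma adjusted p = 8.57e-05 and 1.46e-04), but scaling to the piRNA total gave -0.03 and -0.04, neither of which passed. Size factors from the CSR-class 22G siRNAs gave 1.21 for each at 25 °C, and both passed. In the deposited rpm both passed at both temperatures, with 0.39 and 0.38 at 20 °C and 0.92 for each at 25 °C, where 22.7% and 51.9% of all features tested passed as higher. The share of miR-48-5p within the family does not depend on the scaling, and it went from 77.0% ± 0.833 to 83.1% ± 0.359 at 25 °C (SD, n = 4, exact permutation p = 0.029, the smallest that 4 against 4 libraries allow, adjusted p = 0.029 over 4 arms).

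let-7-5p lay between these patterns. At 20 °C it was at 3522, 3336 and 4359 rpm in wild-type, against 4580, 4904 and 4353 rpm in mutants. The strains overlapped, because wild-type replicate 3 was above the lowest mutant library. The rescaled log2 fold change was -0.05 (standard error 0.0910, limma adjusted p = 0.805), whereas the deposited rpm gave 0.31, which passed (limma adjusted p = 2.21e-02). At 25 °C the deposited rpm overlapped as well, with 4054, 4115, 3798 and 3946 rpm in wild-type, against 3858, 4037, 4184 and 4031 rpm in mutants. Rescaling separated them, from 4752.9 ± 50.9 rescaled rpm in wild-type to 3197.5 ± 132.5 in mutants (SD, n = 4, no overlap). Of all features tested at 25 °C, 33.7% were lower in mutants without overlap after rescaling. The log2 fold change of let-7-5p was -0.57 (standard error 0.0618, limma adjusted p = 3.66e-09). The direction at 25 °C depended on the scaling, since the deposited rpm gave 0.02, which did not pass, and size factors from the CSR-class 22G siRNAs gave 0.31, which passed.

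**Figure D1:**
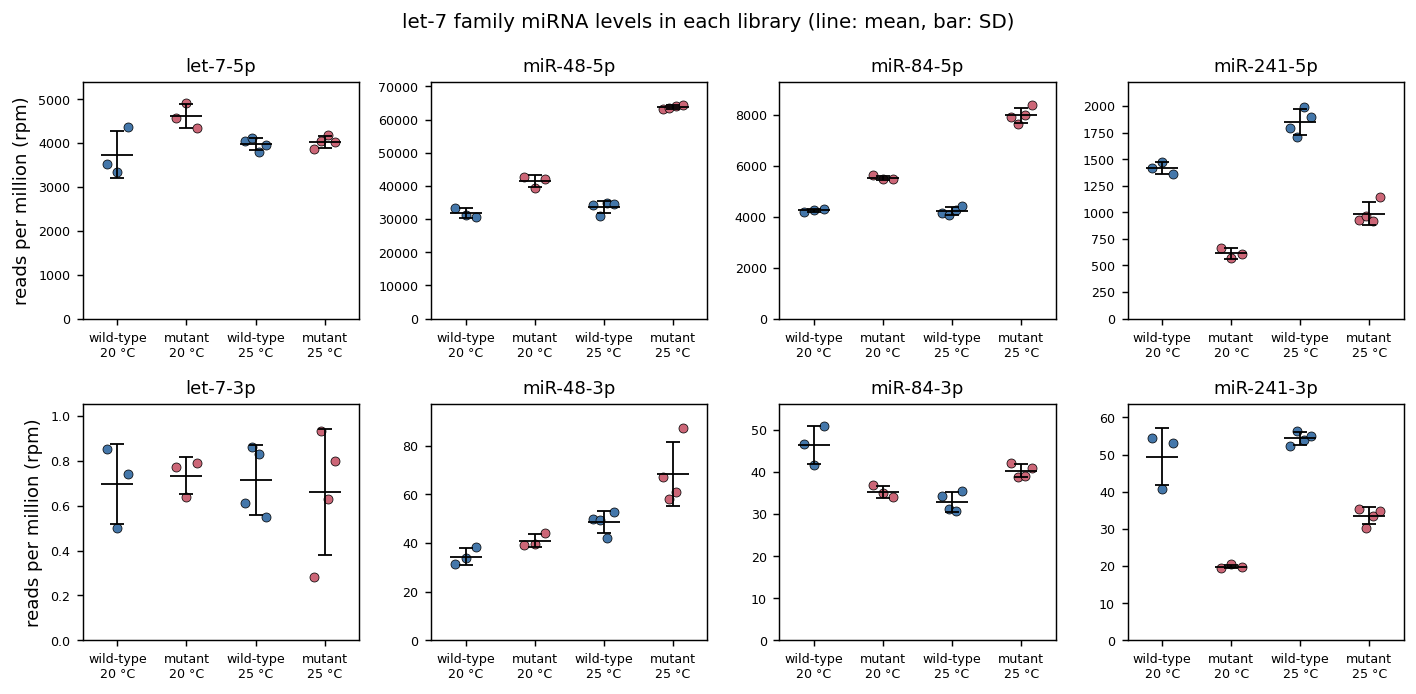
Deposited levels (rpm, linear axes from 0) of the 5p arms (top) and 3p arms (bottom) in each library, with blue points for wild-type, red points for mutants, and the mean and SD in black. miR-241-5p and miR-241-3p were lower in every mutant library at both temperatures, miR-48-5p and miR-84-5p were higher in every mutant library, and let-7-5p overlapped at both temperatures.

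Ratios between members within a library are free of any scaling, and they set miR-241 apart from its neighbor miR-48. At 20 °C miR-48-5p was 22.4 times as abundant as miR-241-5p in wild-type and 67.7 times in mutants, a log2 difference of 1.59. At 25 °C this ratio went from 18.2 to 64.8, a log2 difference of 1.83. The ratio of miR-84-5p to miR-241-5p moved by 1.59 at 20 °C and by 1.82 at 25 °C. In all of these the strains did not overlap. At 20 °C the exact permutation p was 0.1, the smallest that 3 against 3 libraries allow (adjusted p = 0.2 over 6 ratios), so that design cannot pass the threshold of 0.05. At 25 °C it was 0.029 (adjusted p = 0.034).

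Against let-7-5p, miR-48-5p and miR-84-5p were higher in mutants at 25 °C. The ratio of miR-48-5p to let-7-5p went from 8.45 to 15.8, a log2 difference of 0.91, and that of miR-84-5p to let-7-5p from 1.06 to 1.98, a log2 difference of 0.90. miR-241-5p moved the other way, from 0.463 to 0.244 of the let-7-5p level, a log2 difference of -0.92. None of these ratios overlapped between strains at 25 °C (exact permutation p = 0.029, adjusted p = 0.034 for each). At 20 °C the ratios of miR-48-5p and miR-84-5p to let-7-5p differed by 0.07 and overlapped (exact permutation p = 0.7 for each), whereas miR-241-5p relative to let-7-5p went from 0.381 to 0.133, a log2 difference of -1.52 with no overlap (exact permutation p = 0.1). Leaving out replicate 3, which includes the wild-type library highest in let-7-5p, turned the 20 °C differences of miR-48-5p and miR-84-5p to let-7-5p to -0.12 and -0.07.

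**Figure D2:**
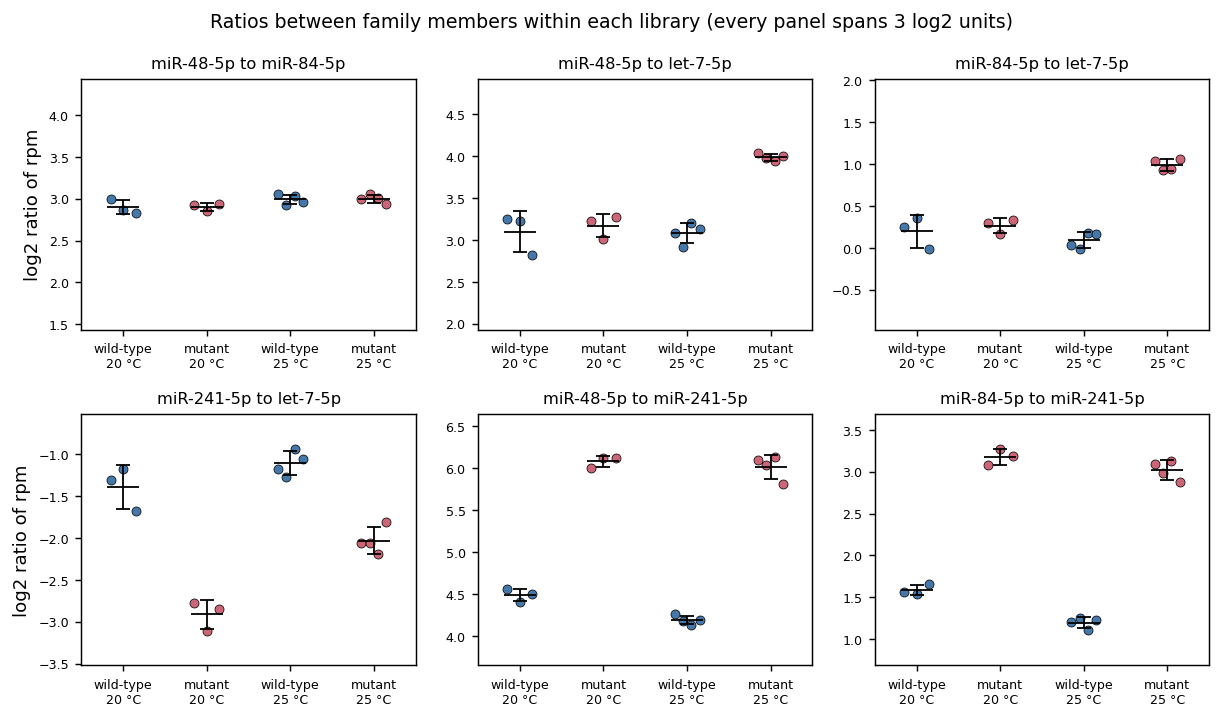
Within-library log2 ratios of rpm between the 5p arms, 1 point per library (blue, wild-type; red, mutants), with mean and SD, every panel spanning the same number of log2 units. The ratio of miR-48-5p to miR-84-5p stayed level, the ratios to miR-241-5p moved apart at both temperatures, and the ratios of miR-48-5p and miR-84-5p to let-7-5p moved apart at 25 °C.

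Over the tested members, 3 of 7 fell and 0 rose by limma at 20 °C, also with 0 higher at an unadjusted p under 0.05 (those that fell were miR-241-5p, miR-241-3p and miR-84-3p), where 3.84% of all features tested fell and 2.06% rose. At 25 °C 4 of 7 fell (let-7-5p, miR-241-5p, miR-84-3p and miR-241-3p) and 2 rose, where 39.3% of all features fell and 33.6% rose. Among miRNAs alone, 123 of 233 tested fell at 20 °C and 166 of 232 at 25 °C, so the share of the family that fell did not exceed that of its class. The median log2 fold change of the 7 members was -0.11 at 20 °C and -0.30 at 25 °C, beside -0.01 and -0.04 over all features tested. Relative to the deposited rpm, the rescaling lowered every log2 fold change by 0.37 at 20 °C and by 0.59 at 25 °C.

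**Figure D3:**
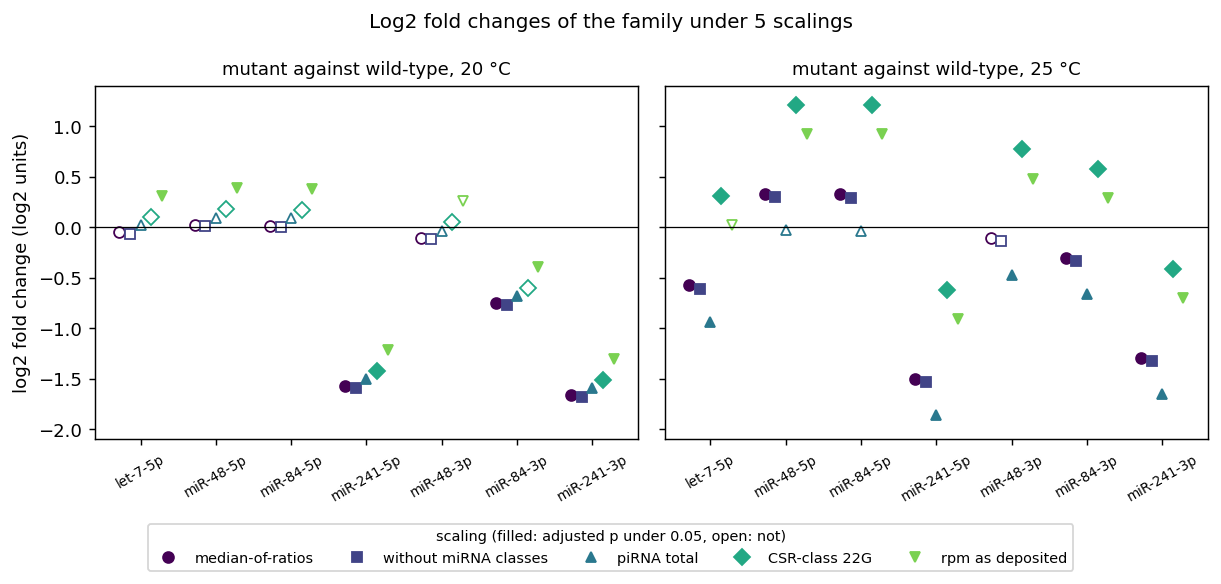
Log2 fold changes of mutants against wild-type for the 7 tested members at 20 °C (left) and 25 °C (right) under 5 scalings, filled where the limma adjusted p was under 0.05. miR-241-5p and miR-241-3p were below 0 under every scaling at both temperatures. At 25 °C let-7-5p, miR-48-5p, miR-84-5p, miR-48-3p and miR-84-3p changed sign with the scaling.

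The difference between strains changed with temperature for 5 of the 7 tested members, 1 in the negative and 4 in the positive direction. Of all 6396 features compared, 22.5% and 15.5% passed in these directions. Among the 227 miRNAs compared, 110 passed in the negative and 27 in the positive direction. Their median difference was -0.51, and let-7-5p lay near it, with 112 miRNAs lower and 114 higher. The part of the mutants' developmental defects at 25 °C in these differences was not tested. The change of let-7-5p was lower at 25 °C than at 20 °C by a log2 difference of -0.52 (limma strain-by-temperature term, adjusted p = 2.98e-04), but with CSR-class size factors it was 0.20, which did not pass. For miR-48-5p and miR-84-5p the change was higher at 25 °C by 0.31 each (limma adjusted p = 2.69e-02 and 2.47e-02), and scaling to the piRNA total gave -0.12 for each, which did not pass. miR-48-5p did not pass without replicate 1 (0.30) or without replicate 2 (0.21), and miR-84-5p did not pass without replicate 1 (0.32), 2 (0.26) or 3 (0.38). For miR-241-5p the difference was 0.08 (limma adjusted p = 0.673), but it was 0.30 in the deposited rpm and -0.36 when scaled to the piRNA total, and each of these passed. The differences of miR-84-3p (0.46, limma adjusted p = 1.22e-02) and miR-241-3p (0.38, limma adjusted p = 4.63e-02) were not stable, since scaling to the piRNA total gave 0.02 and -0.06, neither of which passed, and each also failed under other settings.

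The arms of mir-84 parted in mutants. At 20 °C miR-84-3p was at 46.6, 41.7 and 50.9 rpm in wild-type, against 36.8, 35.0 and 34.1 rpm in mutants, a rescaled log2 fold change of -0.75 (standard error 0.121, limma adjusted p = 2.28e-05) that narrowly missed the threshold with CSR-class size factors (-0.60, adjusted p = 0.0506). At 25 °C it was at 34.3, 31.1, 30.6 and 35.5 rpm in wild-type, against 42.2, 38.9, 39.1 and 40.9 rpm in mutants. The deposited rpm thus fell at 20 °C and rose at 25 °C, without overlap in either case, whereas the rescaled change at 25 °C was -0.30 (limma adjusted p = 3.82e-03), against 0.29 in the deposited rpm and 0.58 with CSR-class size factors. The scaling-free ratio of miR-84-5p to miR-84-3p went from 91.7 to 156.3 at 20 °C (log2 difference 0.77, exact permutation p = 0.1, adjusted p = 0.3 over 3 hairpins) and from 128.4 to 197.8 at 25 °C (log2 difference 0.62, exact permutation p = 0.029, adjusted p = 0.086). The strains did not overlap at either temperature, but neither difference passed after adjustment.

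For mir-48 the arms were less clearly separated. At 20 °C miR-48-3p was at 31.4, 33.7 and 38.2 rpm in wild-type, against 39.1, 39.7 and 44.3 rpm in mutants, and its rescaled log2 fold change was -0.11 at both temperatures (limma adjusted p = 0.680 and 0.376). At 25 °C its direction depended on the scaling, with 0.48 in the deposited rpm, 0.77 with CSR-class size factors and -0.47 when scaled to the piRNA total, all of which passed. At 25 °C it was at 49.7, 49.4, 42.2 and 52.7 rpm in wild-type, against 67.1, 58.0, 61.0 and 87.2 rpm in mutants, highest in mutant replicate 4. The ratio of miR-48-5p to miR-48-3p went from 921.5 to 1008.1 at 20 °C (exact permutation p = 0.4) and from 693.9 to 943.9 at 25 °C (log2 difference 0.44, exact permutation p = 0.057), with overlapping libraries.

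Reads whose 5′ end lay 1 to 3 nucleotides from the annotated end, called iso-miRs, were a small part of each 5p arm. Such a shift moves the seed. For miR-48-5p they made up 0.382 to 0.411% of iso-miR plus mature reads in wild-type, against 0.524 to 0.539% in mutants, at 20 °C. At 25 °C the shares were 0.414 to 0.444% and 0.608 to 0.629%. The strains did not overlap at either temperature, and the mean went from 0.392% ± 0.0164 to 0.531% ± 0.00737 at 20 °C (SD, n = 3, exact permutation p = 0.1, adjusted p = 0.4 over 4 arms) and from 0.433% ± 0.0140 to 0.621% ± 0.00883 at 25 °C (SD, n = 4, exact permutation p = 0.029, adjusted p = 0.11), so neither passed after adjustment. The iso-miR feature of miR-48-5p rose on the rescaled scale by 0.46 at 20 °C (limma adjusted p = 4.26e-03) and by 0.85 at 25 °C (limma adjusted p = 9.78e-12). For let-7-5p, miR-84-5p and miR-241-5p the iso-miR shares overlapped between strains at both temperatures, with group means from 0.149 to 0.410%. Shifted 5′ ends were far more common on miR-84-3p, which at 20 °C had 30.8% ± 4.05 in wild-type, against 34.6% ± 1.61 in mutants (SD, n = 3). On let-7-3p they made up 45.0% ± 7.41 in wild-type at 25 °C (SD, n = 4), from few reads. On miR-48-3p the share was higher in every mutant library, going from 2.57% ± 0.154 to 4.92% ± 1.38 at 20 °C (SD, n = 3) and from 1.96% ± 0.440 to 5.17% ± 0.788 at 25 °C (SD, n = 4), a description resting on about 13 to 85 iso-miR reads per library. The iso-miR feature of miR-48-3p had log2 fold changes of 0.77 at 20 °C, which did not pass (limma adjusted p = 0.178), and 1.28 at 25 °C (limma adjusted p = 2.52e-05).

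**Figure D4:**
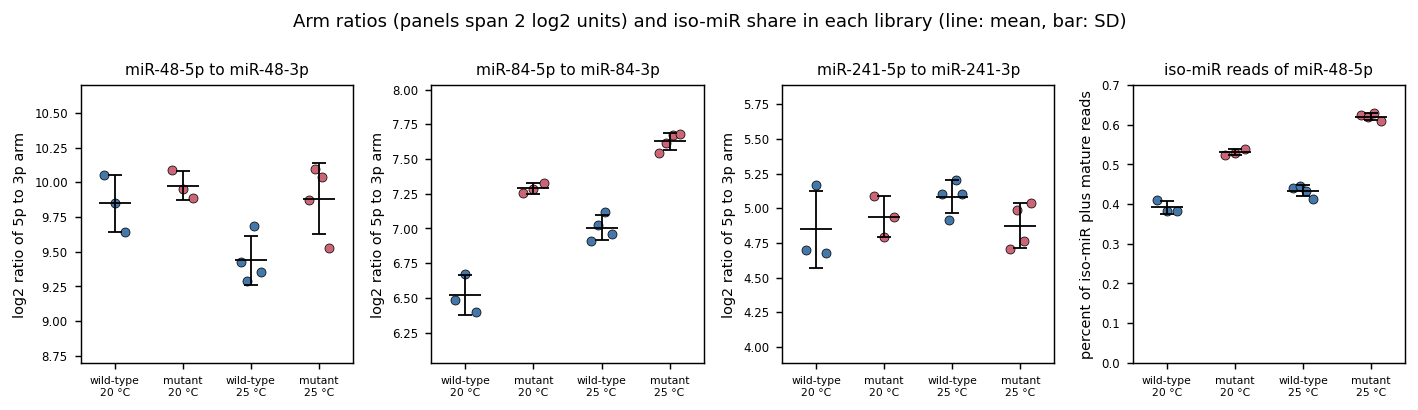
Log2 ratio of the 5p to the 3p arm for mir-48, mir-84 and mir-241, and the percent of miR-48-5p reads with a shifted 5′ end, in each library (blue, wild-type; red, mutants), with mean and SD. The mir-84 ratio and the miR-48-5p iso-miR share were higher in every mutant library than in any wild-type library of the same temperature.

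Set among all miRNAs, miR-48-5p and miR-84-5p lay in the upper part of the distribution of changes and miR-241-5p in the lower part. The median rescaled log2 fold change of the 233 miRNAs tested at 20 °C was -0.43, and 173 of them had a lower value than miR-48-5p, 172 than miR-84-5p, 159 than let-7-5p and 31 than miR-241-5p. At 25 °C the median of 232 miRNAs was -0.90, and 196 had a lower value than miR-48-5p, 195 than miR-84-5p, 138 than let-7-5p and 79 than miR-241-5p. A scaling of whole libraries moves all miRNAs nearly alike, so these positions hardly depend on it.

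**Figure D5:**
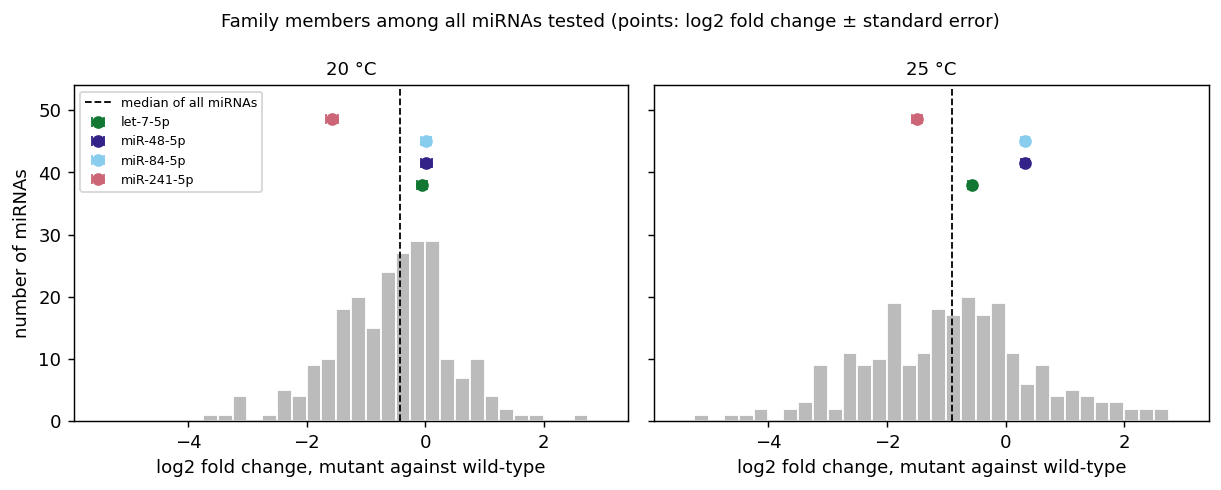
Number of miRNAs by rescaled log2 fold change (gray bars), their median (dashed line) and the 5p arms of the family (points with standard errors, placed above the bars) at 20 °C and 25 °C. miR-48-5p and miR-84-5p lay right of the median at both temperatures and miR-241-5p left of it.

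The 4 5p arms together took a larger share of all miRNA rpm in mutants, which at 20 °C was 6.94% ± 0.0937, against 5.10% ± 0.129 in wild-type (SD, n = 3). At 25 °C it was 10.6% ± 0.290 in mutants, against 5.23% ± 0.221 in wild-type (SD, n = 4). Their summed rescaled rpm averaged 46074.2 in wild-type, against 45392.4 in mutants, at 20 °C, and 52336.4 against 61000.6 at 25 °C. At 20 °C the summed deposited rpm was higher in mutants (52198.9, against 41142.1 in wild-type), as was the share, but the rescaled sum was not. miR-35-3p to miR-41-3p, a cluster expressed in embryos, which gravid adults carry, moved in the opposite direction. Their share of miRNA rpm went from 22.3% ± 1.42 to 13.0% ± 0.913 at 20 °C and from 24.1% ± 1.25 to 8.73% ± 0.635 at 25 °C. Outside these 7 miRNAs, the family held 6.57% in wild-type, against 7.98% in mutants, at 20 °C, and 6.88% against 11.6% at 25 °C. The part of embryo number in the family's levels was not tested.

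Of 4 further hairpins grouped with let-7, mir-793, mir-794, mir-795 and mir-1821, 6 of 7 listed arms were tested, with 4 lower and 0 higher by limma at 20 °C (0 higher also at an unadjusted p under 0.05) and 3 lower and 2 higher at 25 °C, beside 3.84% of all features lower at 20 °C and 39.3% lower and 33.6% higher at 25 °C. Many miRNAs fell (123 of 233 at 20 °C and 166 of 232 at 25 °C). The calls moved with the scaling, to 2 lower and 4 higher at 25 °C with CSR-class size factors and to 4 lower and 1 higher when scaled to the piRNA total. Their shared seed was not checked here. miR-794-5p fell most, from 14.7 ± 2.15 to 3.38 ± 0.605 rpm at 20 °C (SD, n = 3) and from 11.1 ± 0.889 to 1.34 ± 0.357 rpm at 25 °C (SD, n = 4), with log2 fold changes of -2.46 and -3.56 (limma adjusted p = 7.55e-13 and 1.42e-16). miR-793 fell at 20 °C (-0.71) and was at -0.05 at 25 °C, which did not pass (limma adjusted p = 0.528). miR-795-5p was at 0.04 at 20 °C, which did not pass, and rose by 0.29 at 25 °C, but it was not called higher there when scaled to the piRNA total.

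The other heterochronic miRNAs were lin-4, which acts on lin-14 in the earliest larval stages, and its relative miR-237. Of their arms 3 of 4 were tested, with 2 lower and 0 higher by limma at each temperature (0 higher also at an unadjusted p under 0.05). Of all features 3.84% and 39.3% were lower. Among miRNAs alone 123 of 233 were lower at 20 °C and 166 of 232 at 25 °C, so 2 of 3 was not far from the share of the class. In the deposited rpm and with CSR-class size factors, 1 of the tested arms was lower at 20 °C and 1 was higher at 25 °C. lin-4-5p was at -0.18 at 20 °C (limma adjusted p = 0.384) and at 0.09 at 25 °C (limma adjusted p = 0.253), where the deposited rpm gave 0.68 and CSR-class size factors 0.97, and both passed. Scaled to the piRNA total it was at -0.27 at 25 °C and passed as lower, so its direction depended on the scaling. At 20 °C miR-237-5p fell by 0.41 on the log2 scale, but the deposited rpm gave -0.05 and CSR-class size factors -0.25, neither of which passed. It fell by 1.60 at 25 °C, where it went from 1623.9 ± 51.9 to 808.1 ± 65.7 rpm (SD, n = 4). The drop was larger at 25 °C by a log2 difference of -1.19 (limma adjusted p = 1.45e-10).

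Over the 14 libraries, with the mean of each table removed, miR-48-5p and miR-84-5p varied alike (Pearson r = 0.95), as did miR-241-5p and miR-241-3p (r = 0.98). The 5p and 3p arms did not for mir-48 (r = -0.03) or mir-84 (r = -0.21). Among 144 miRNAs compared, those most like let-7-5p were miR-47-5p (r = 0.98), miR-61-5p (0.97) and miR-55-3p (0.96). Those most like miR-241-5p were miR-356b-3p (0.99), miR-5551-5p (0.98) and miR-58a-5p (0.98). miR-57-5p, miR-795-3p and miR-1820-5p were the closest to both miR-48-5p (0.90, 0.91 and 0.90) and miR-84-5p (0.91, 0.87 and 0.87). The libraries share strain, temperature and scaling, so these values are a description.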

How the data were processed

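The authors processed the small RNA reads in the tinyRNA workflow (fastp for trimming and filtering, bowtie for alignment, genome release WS279) and deposited rpm values, 1 table per temperature. A mature miRNA read starts at the annotated 5′ end. In the table for 20 °C the classes stood 1 line below their features. Once this was repaired, all 23869 classes equaled those of the other table.

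Size factors by the median-of-ratios method were computed per table and divided out of the rpm, and log2(value + 0.1) was fitted, for features averaging 1 rpm or more, with limma 3.58.1 (R 4.3.3, trend and robust options), with Benjamini-Hochberg adjustment over all features and a threshold of 0.05. Fold changes of low features are understated on this scale. Temperatures were compared by an interaction term. Exact permutation tests (two-sided) served for ratios and shares taken within a library, with Python 3.11.15, numpy 2.4.6 and pandas 2.3.3. The study's own test ran on read counts; 90.0 to 92.5% of low rpm values were whole reads at the estimated step of 0.0427 to 0.0611 rpm, too few to run it here. Replicates differed by more than sampling noise.

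The features named are all miRNA, iso-miR and pre-miRNA rows of let-7, mir-48, mir-84 and mir-241, lists of let-7 relatives, other heterochronic miRNAs and siRNAs of heterochronic genes, and the 3 miRNAs with the highest correlation. Members and lists were chosen with earlier results of these data known. Positions came from the WBcel235 annotation (Ensembl release 115), whose build name differs from WS279, and sequences were not used here. Alternatives were other scalings, pseudocounts (0.01 and 1 rpm), filters, eBayes options, a replicate block and each replicate number left out.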

Additional observations from a re-analysis of the deposited data

Results flagged for a closer look

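Among 50 groups of 4 libraries tested for a stray library, of which chance gives about 1 in 20, 2 had one. The lowest miR-48-5p value among wild-type libraries at 25 °C was 30938.7 rpm in replicate 2, apart from the other 3. The lowest iso-miR share of let-7-5p among mutant libraries at 25 °C was 0.1224%, in replicate 4.

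The difference between strains changed with temperature for several mature and iso-miR features, as the log2 fold change at 25 °C minus that at 20 °C (limma interaction term). The median of this difference over the 227 miRNAs compared was -0.51. The differences of mature features were -0.52 for let-7-5p, 0.31 for miR-48-5p, 0.31 for miR-84-5p, 0.46 for miR-84-3p and 0.38 for miR-241-3p, of which only that of let-7-5p passed with every replicate number left out in turn, and none kept its call under every scaling. Those of iso-miR features were -0.64 for let-7-5p, 0.39 for miR-48-5p and 0.49 for miR-84-5p. For let-7-5p, miR-48-5p and miR-84-5p, the mature and iso-miR features differed in the same direction. Iso-miR reads come from the same arms in the same libraries under the same scaling, so this agreement is not independent evidence.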

How the results depend on the processing

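Of 430 alternative values, 326 kept their direction and their side of the threshold, and 37 changed sign. In the deposited rpm the log2 fold change at 20 °C was 0.31 for let-7-5p, 0.39 for miR-48-5p, 0.38 for miR-84-5p and 0.26 for miR-48-3p, at 25 °C 0.02 for let-7-5p, 0.48 for miR-48-3p and 0.29 for miR-84-3p, and the difference between temperatures 0.30 for miR-241-5p and 0.22 for miR-48-3p. Scaled to the piRNA total, let-7-5p was at 0.02 at 20 °C, miR-48-5p at -0.03 and miR-84-5p at -0.04 at 25 °C, and the difference at -0.12 for miR-48-5p, -0.12 for miR-84-5p, -0.36 for miR-241-5p, -0.06 for miR-241-3p and 0.02 for miR-84-3p, while miR-48-3p passed at -0.47 at 25 °C and -0.44 for the difference. With CSR-class size factors, let-7-5p was at 0.10 at 20 °C, 0.31 at 25 °C and 0.20 for the difference, miR-48-3p at 0.05, 0.77 and 0.72, miR-84-3p at 0.58 at 25 °C, and the difference of miR-241-5p at 0.80. miR-84-3p no longer passed at 20 °C (-0.60). The causes were not tested. The differences of miR-48-5p (0.31 without a filter, 0.31 without trend and robust options) and miR-84-5p (0.31 without those options) no longer passed, nor did those of miR-84-3p (0.46 without those options) and miR-241-3p (0.38 without a filter or without those options, 0.36 with size factors without miRNA classes), nor miR-84-3p at 20 °C without those options (-0.75, adjusted p = 0.0501).

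No pairing by replicate number was detected. Same-numbered libraries of the 2 strains correlated at -0.148 to 0.102 at 20 °C and -0.026 to 0.029 at 25 °C. Those with different numbers correlated at -0.206 to 0.232 and -0.078 to 0.096. So few pairs cannot exclude a weak pairing. With a replicate block, the smallest p over 4 pairs cannot pass, so the 25 °C ratios (0.91 and 0.90 for miR-48-5p and miR-84-5p to let-7-5p, -0.92 for miR-241-5p to let-7-5p, 1.83 and 1.82 for miR-48-5p and miR-84-5p to miR-241-5p) did not, and the block changed no call of the limma fits.

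Leaving out each replicate number in turn gave 0.85 to 0.96 and 0.86 to 0.94 for the 25 °C ratios of miR-48-5p and miR-84-5p to let-7-5p, -0.98 to -0.81 for miR-241-5p to let-7-5p, and 1.77 to 1.90 and 1.76 to 1.88 for miR-48-5p and miR-84-5p to miR-241-5p, where 3 against 3 libraries cannot pass. The ratio of miR-48-5p to miR-84-5p ranged from -0.04 to 0.05 at 20 °C and -0.03 to 0.03 at 25 °C, and at 20 °C those of miR-48-5p and miR-84-5p to let-7-5p from -0.12 to 0.22 and -0.07 to 0.20. Log2 fold changes at 20 °C ranged from -0.13 to 0.07 for let-7-5p, -0.05 to 0.09 for miR-48-5p and -0.02 to 0.07 for miR-84-5p. Differences between temperatures ranged from 0.21 to 0.44 for miR-48-5p, 0.26 to 0.38 for miR-84-5p, -0.07 to 0.24 for miR-241-5p, -0.10 to 0.03 for miR-48-3p, 0.42 to 0.48 for miR-84-3p and 0.23 to 0.56 for miR-241-3p. The difference of miR-84-3p did not pass without replicate 3 (0.42), nor that of miR-241-3p without replicate 1 (0.23), 3 (0.38) or 4 (0.35), and miR-48-3p at 25 °C passed without replicate 4 (-0.21). At 20 °C the arm ratio of mir-241 ranged from -0.06 to 0.33, the iso-miR difference of miR-241-5p from -0.0174 to 0.0355 percentage points and the family share of let-7-5p from -1.09 to 0.846, and at 25 °C the iso-miR difference of miR-84-5p from -0.0114 to 0.0193.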

Other observations

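Small interfering RNAs against protein-coding heterochronic genes and miRNA cofactors were listed for 9 of 15 genes, and 5 of these were tested (alg-2, let-60, lin-41, nhl-2 and ain-2). At 20 °C 0 passed by limma, with 1 at an unadjusted p under 0.05, and their log2 fold changes ranged from -0.46 to 0.12. At 25 °C all 5 were lower, with a median of -0.73, beside 39.3% of all features tested. In the deposited rpm 1 was lower, so the count depended on the scaling. With size factors from the CSR-class siRNAs 0 were lower and 0 higher, with log2 fold changes from -0.32 to 0.29 and a median of 0.14. All 5 belong to that class, and such factors remove any change shared by it, so this last count cannot decide whether they fell. Measured against their own class, the 5 were thus not called as changed.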
